A study of Drosophila melanogaster with 3 samples.

Results

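The Hox genes of the Antennapedia complex (lab, pb, Dfd, Scr and Antp) and of the bithorax complex (Ubx, abd-A and Abd-B) were examined for binding of Ouib (CG11762), a zinc finger protein known for its role in ecdysone synthesis in the prothoracic gland. The members are the 8 Hox genes of Drosophila melanogaster, of 13945 protein-coding genes on the major chromosome arms and of 3421 on chromosome 3R, where both complexes lie. A peak was assigned to a gene when its summit lay in the gene body or within 10 kb of it, and the 8 windows cover 497.5 kb in all. The study holds 1 group of 3 biological replicates of whole prepupae, of mixed sex and unknown age, from a stable transgenic line whose Ouib carries GFP at its C-terminus, and chromatin was precipitated with an antibody against GFP. No condition was compared, and chromatin of a whole animal mixes all body regions and tissues, so binding in the cells that express a Hox gene and in those that do not cannot be told apart.

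Hox genes encode homeodomain transcription factors that give body segments their identity along the head to tail axis. In the fly they are split between the complex of head and thorax genes and the complex of thorax and abdomen genes, and their order along the chromosome follows the order of the segments they act in. Long introns and intergenic stretches hold their enhancers, boundary elements and Polycomb response elements, at which Polycomb group proteins keep the genes silent outside their own segments and trithorax group proteins keep them active within.

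Altogether, 5 lists of peaks on dm6 were used. The authors' optimal list, which keeps peaks that agree between replicates, holds 5048 peaks, and the pooled list and each replicate's own list hold 30000 peaks each and include background. Each peak carries the authors' signal, whose scale differs between lists, so a replicate's values were divided by the median of its 5048 best peaks, and a value of 1 is then the median best peak of that replicate. The lists hold no read counts and the depth is unknown. Genes and positions follow Ensembl release 115 on the same assembly.

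Of the 5048 optimal summits, 13 lay in the windows of 6 Hox genes and none lay in those of lab and pb. Sequences of 200 bp centred on 6 of these summits are shown. They are the 4 of highest mean signal and, from 2 further genes, the summit in the Ubx intron and that by Dfd. Capitals mark GAGAG (the core bound by GAGA factor), GCCAT (the core bound by Pleiohomeotic), TATAAAA (the TATA box) and TAATTA (a homeodomain core) on either strand, so that their reverse complements are in capitals too.
Antp intron, strongest peak, chr3R:6914451-6914650, plus strand: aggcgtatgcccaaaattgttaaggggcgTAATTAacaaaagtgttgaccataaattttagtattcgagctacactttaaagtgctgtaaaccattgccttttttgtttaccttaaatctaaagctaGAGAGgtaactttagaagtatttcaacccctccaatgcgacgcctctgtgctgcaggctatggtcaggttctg
Antp intron, next to the strongest peak, chr3R:6912489-6912688, plus strand: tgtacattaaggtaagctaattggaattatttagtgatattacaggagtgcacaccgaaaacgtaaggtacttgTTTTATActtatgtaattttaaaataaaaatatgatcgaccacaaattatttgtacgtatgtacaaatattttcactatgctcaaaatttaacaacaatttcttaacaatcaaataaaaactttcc
Beyond the 3′ end of abd-A, chr3R:16798755-16798954, plus strand: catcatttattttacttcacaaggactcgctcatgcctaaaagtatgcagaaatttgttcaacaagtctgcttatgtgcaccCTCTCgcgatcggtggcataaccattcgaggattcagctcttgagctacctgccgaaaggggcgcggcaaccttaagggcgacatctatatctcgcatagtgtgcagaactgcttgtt
Abd-B intron, chr3R:16958166-16958365, plus strand: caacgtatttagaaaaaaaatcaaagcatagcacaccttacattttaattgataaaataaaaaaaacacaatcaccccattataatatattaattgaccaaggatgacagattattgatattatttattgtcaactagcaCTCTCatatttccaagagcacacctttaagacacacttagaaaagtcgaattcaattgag
Ubx intron, chr3R:16718078-16718277, plus strand: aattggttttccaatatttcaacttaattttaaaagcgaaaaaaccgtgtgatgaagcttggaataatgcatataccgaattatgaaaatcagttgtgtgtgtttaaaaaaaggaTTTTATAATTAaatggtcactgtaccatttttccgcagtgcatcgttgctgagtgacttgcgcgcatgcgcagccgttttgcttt
Beyond the 3′ end of Dfd, chr3R:6812261-6812460, plus strand: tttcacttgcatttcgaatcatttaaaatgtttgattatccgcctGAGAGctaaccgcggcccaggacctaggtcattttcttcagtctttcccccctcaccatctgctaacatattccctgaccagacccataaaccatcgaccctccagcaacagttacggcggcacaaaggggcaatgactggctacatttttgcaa

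The strongest of the 13 peaks lay in an Antp intron, and the next by mean signal lay beyond the 3′ end of abd-A. Antp held 6 of the 13 summits, all in its introns, and Ubx and Abd-B held 2 each. Dfd, Scr and abd-A held 1 each, outside their gene bodies. In the pooled list, which reaches down into background, all 8 genes had summits, 125 in all, of which Antp had 45 and Ubx 22. Scr had 17, abd-A and Abd-B had 11 each, pb 8, Dfd 6 and lab 5. No summit fell in the windows of more than 1 gene. Among the 5048 best peaks of each replicate, 12, 14 and 10 summits lay in Hox windows in replicates 1, 2 and 3, and 2, 1 and 0 of these overlapped no optimal peak.

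A count of 6 of 8 Hox genes (75.0%) with an optimal summit stands beside 57.9% of all protein-coding genes and 60.3% of those on 3R. Long genes have more room for a summit. Of the 2 Hox genes of 5 to 20 kb, 1 had a summit, beside 67.1% of all genes of that length, and of the 6 Hox genes of 20 kb and over, 5 had one, beside 71.2% of all such genes. In both length classes the Hox count lay within 1 gene of what the share of all genes gives, so the shares are near the background.

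**Figure D1:**
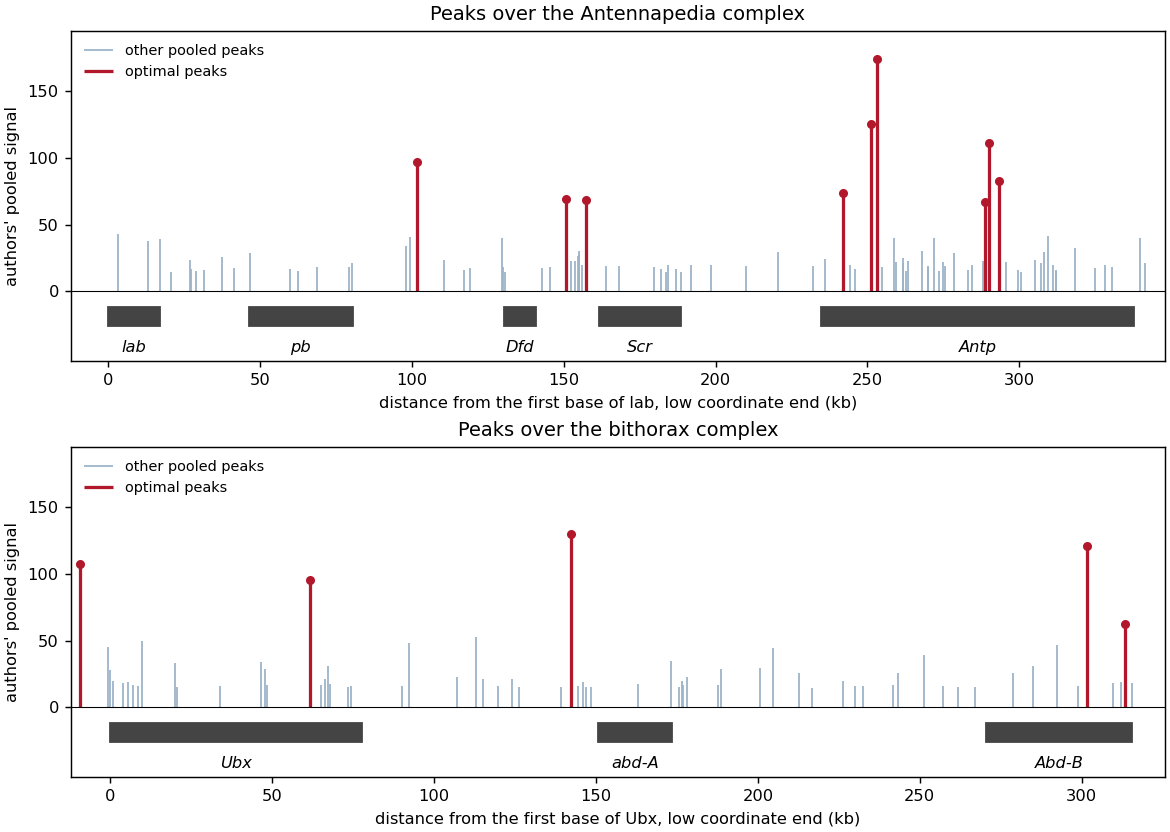
Peaks of the pooled list over each complex, drawn by distance in kb from the low coordinate end of lab or of Ubx (horizontal axis) and by the authors' pooled signal (vertical axis), with gene bodies as boxes. Red lines with dots are optimal peaks, the strongest at 174 in Antp, and pale lines are other pooled peaks; the red line between pb and Dfd is the peak at the promoter of Ama.

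At the head end of the Antennapedia complex, lab, which acts in the intercalary region of the head, and pb, which shapes the mouthparts, had no optimal summit. Their strongest pooled peaks were weak. That of lab lay in its intron at chr3R:6664879 with 0.275, 0.483 and 0.619 times the replicate median in replicates 1, 2 and 3, and ranked 7596 in the pooled list. That of pb lay in a coding exon, ranked 12200, had 0.301 and 0.353 times the median in replicates 1 and 2 and was not listed in replicate 3. Neither gene had a summit among the best peaks of any replicate. For lab this was a near miss in replicate 3, where its strongest peak, at 0.619 times the median, ranked 5098. The replicate 3 peak that overlapped the optimal peak by Dfd, with 0.624 and rank 5037, was just inside the best peaks. The strongest lab peaks of replicates 1 and 2 ranked 8950 and 5556. Those of pb ranked 14345, 9278 and 11302 in replicates 1, 2 and 3. In the full replicate lists lab had 7, 8 and 11 summits and pb had 3, 11 and 9.

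Dfd, which acts in the mandibular and maxillary segments, had 1 optimal summit at chr3R:6812360, within lncRNA:CR42651 and 9.93 kb from the gene body. Its signal was 0.811, 0.882 and 0.624 times the median in replicates 1, 2 and 3, a mean of 0.772 ± 0.133 (SD, n = 3). In replicate 3 the overlapping peak had its summit outside the Dfd window, which held no best summit of that replicate. With the replicate peak of nearest summit within 250 bp instead, the mean was 0.614. The optimal peak by Dfd lay 10.76 kb from the body of Scr, just beyond that gene's limit. Scr, which acts in the labial and first thoracic segments, had its optimal summit at chr3R:6818796, between genes and 1098 bp from tRNA:Lys-TTT-2-1. This peak had 0.448 and 0.527 times the median in replicates 1 and 2 and 1.03 in replicate 3 (mean 0.670 ± 0.318), and only in replicate 3 was it among the best peaks. The coding start nearest to it was that of Dfd, 26960 bp away, and the nearest start of Scr lay 29709 bp away.

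Antp, which specifies the second thoracic segment and spans 103 kb, carried its 6 optimal summits in 2 groups that lie on either side of a stretch of 35.7 kb without one. All 6 lay in introns that Antp shares with CG46458, a gene annotated over the same region. In the group nearer the 3′ end, the peak at chr3R:6914550 was the strongest at any Hox gene, with 1.53, 1.60 and 1.82 times the median in replicates 1, 2 and 3 (mean 1.65 ± 0.149, SD, n = 3) and rank 1082 of the optimal list. It was also narrow, at 113 bp, where 396 bp was the usual width and 646 of the 5048 optimal peaks were narrower. Its neighbour at chr3R:6912588, 2.0 kb away, varied least, with 1.15, 1.20 and 1.24 times the median (mean 1.20 ± 0.0441). The outermost peak of that group, at chr3R:6903485, had 0.780 and 0.838 times the median in replicates 1 and 2 and 0.300 in replicate 3.

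The group nearer the middle of Antp lay beside an annotated start of the gene, the one at chr3R:6958370, at distances of 3572, 7058 and 8091 bp. At chr3R:6951312 the signal was 0.884, 1.20 and 0.916 times the median in replicates 1, 2 and 3 (mean 1.00 ± 0.176). The peak closest to the start, at chr3R:6954798, had 0.821, 0.629 and 0.907 (mean 0.786 ± 0.142). The third, at chr3R:6950279, had 0.746 and 0.722 in replicates 1 and 2 and 0.368 in replicate 3. Replicate 3 was the lowest library at 2 of the 6 Antp peaks and the highest at 3, and it had 4 best summits in the Antp window where replicates 1 and 2 had 7 each.

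In the bithorax complex, Ubx, which specifies the third thoracic and first abdominal segments, had 2 optimal summits in its window. The one in its intron, at chr3R:16718177, had 0.629, 0.955 and 1.16 times the median in replicates 1, 2 and 3 (mean 0.913 ± 0.265) and lay 1950 bp from the start of asRNA:PS4. The other, at chr3R:16647214, lay 9.41 kb beyond the gene and 210 bp upstream of CG10324, the promoter of another gene, with 1.05, 1.02 and 0.811 times the median (mean 0.959 ± 0.129). Without it, Ubx had 1 summit.

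abd-A, which acts in the anterior abdominal segments, had its summit at chr3R:16798854, between genes and 8.36 kb beyond the 3′ end of the gene. Its signal of 0.977, 1.57 and 1.16 times the median (mean 1.24 ± 0.301) ranked it 1740 of the optimal list, and it was among the best peaks of all 3 replicates. The coding start nearest to this summit was that of Glut3, 10543 bp away, and the nearest start of abd-A lay 29251 bp away. Abd-B, which acts in the posterior abdomen, had 2 intronic summits. The stronger, at chr3R:16958265 and 2.02 kb from an annotated start, had 0.816, 1.23 and 1.50 times the median (mean 1.18 ± 0.344). The weaker, at chr3R:16970051, had 0.415, 0.683 and 0.435 (mean 0.511 ± 0.149), and only replicate 2 placed it among its best. The next optimal summit beyond Abd-B lay 14.41 kb away and outside the limit.

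**Figure D2:**
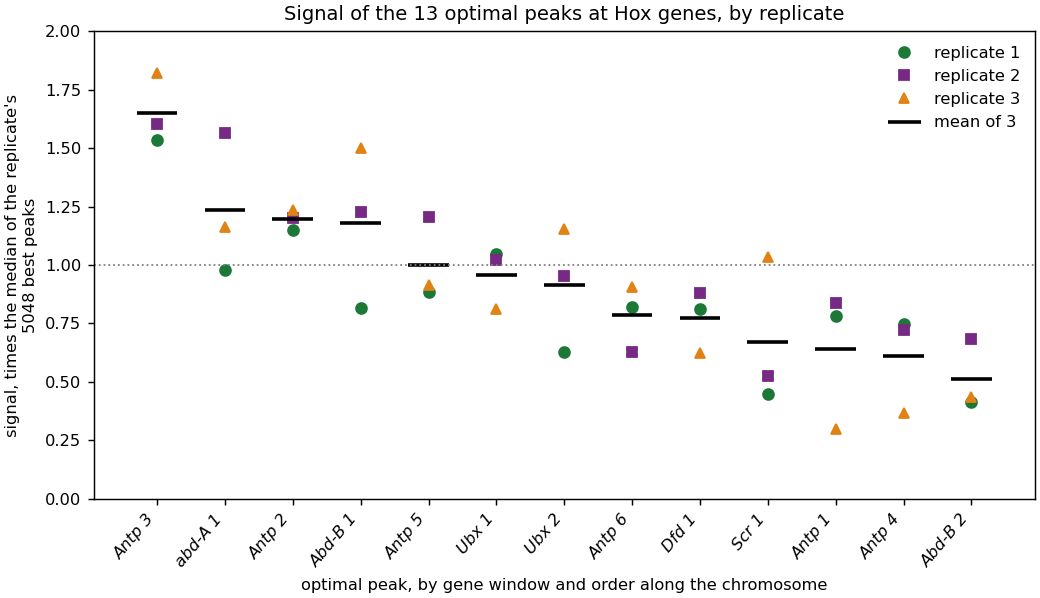
Signal of the 13 optimal peaks in Hox gene windows (vertical axis, in units of the median best peak of the same replicate), ordered by mean, with 1 symbol per replicate and the mean as a bar. Peaks are numbered within each gene window along the chromosome, and only the strongest, the third of Antp, had all 3 replicates above 1.5.

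In the plot of signal by peak, every peak overlapped in range with the next in the order, so no neighbours could be placed apart. Of the 78 pairs of peaks, 31 had ranges that did not overlap, and the strongest Antp peak stood apart from 11 of the other 12, all except the one by abd-A. That peak was picked as the highest on these same values, so its standing apart is a description only. Each of the 13 peaks overlapped a listed peak in every replicate. The optimal list was itself chosen for agreement between these replicates, so such overlap was largely set in advance. Of the 13, 8 overlapped a best peak of all 3 replicates, 3 of 2 replicates and 2 of 1, and the shares over all optimal peaks are not given. The 8 were 4 in Antp and 1 each by Dfd, Ubx, abd-A and Abd-B. For the peak by Dfd, the best peak of replicate 3 had its summit outside the Dfd window. In authors' pooled signal the 13 had a median of 95.4, beside 99.0 for the other optimal peaks of 3R. Of the 13, 6 were above the optimal list's median of 102 and none was among its 500 strongest.

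None of the 8 Hox genes, with 19 annotated transcription starts between them, had an optimal summit within 500 bp, beside 14.9% of all protein-coding genes that had one at any of their starts. The shortest distance was 1477 bp, at Abd-B, and the distance was 84.5 kb for lab, 29.7 kb for Scr, 29.3 kb for abd-A, 21.1 kb for pb, 20.5 kb for Dfd and 16.2 kb for Ubx. Pooled peaks, which are weaker, came close to 6 of the 8 genes within 500 bp of a start, beside 40.2% of all genes. The clearest were at lab, 28 bp from a start, with 0.419, 0.433 and 0.374 times the median in replicates 1, 2 and 3 (mean 0.409 ± 0.0307), and at abd-A, 127 bp from a start, with 0.306, 0.285 and 0.286 (mean 0.292 ± 0.0119). Antp at 528 bp and Ubx at 3527 bp had no pooled summit so close. Those near Dfd, Scr, pb and Abd-B were absent from at least 1 replicate's list. The Hox genes have 1 to 6 starts each, and the shares over all genes were not adjusted for the number of starts.

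Between the summits lay long stretches with no optimal peak. In the bithorax complex 159.4 kb separated the peak by abd-A from the stronger Abd-B peak, and this stretch holds the body of abd-A and the transcription units lncRNA:iab4 and lncRNA:iab8, from which mir-iab-4 and mir-iab-8 come. The windows of those 4 and of lncRNA:bxd, upstream of Ubx, held no optimal summit, although pooled summits lay in the bodies of lncRNA:iab8 (18) and lncRNA:bxd (5). The summit in the Ubx intron and the summit by abd-A lay 80.7 kb apart with no other between them. In the Antennapedia complex no optimal summit lay between its low coordinate edge and the peak at Ama, a stretch that holds lab and pb. The longest distance between neighbouring summits of that complex, 84.7 kb, ran from the peak by Scr to the first Antp peak, across Scr itself and ftz, the pair-rule gene, whose window also held none. The homeobox gene zen2 had none. The windows of zen, of bcd, the anterior morphogen, and of Ama all held 1 peak, the same one, 271 bp upstream of Ama and with 0.833, 1.04 and 0.749 times the median, which lies in the complex but in no Hox window. The window of mir-10, between Dfd and Scr, held 2, which are the Dfd and Scr peaks given above.

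Per length, both complexes held fewer strong summits than the rest of chromosome 3R. Over the 5048 best peaks of each replicate, the bithorax complex (335.6 kb with 10 kb on each side) had a density of 0.404, 0.476 and 0.409 times that of the rest of the arm in replicates 1, 2 and 3, a mean of 0.430 ± 0.0401 (SD, n = 3; log2 -1.22). The Antennapedia complex (357.8 kb) had 0.682, 0.670 and 0.537 times that density, a mean of 0.630 ± 0.0804 (log2 -0.68). The best summits numbered 15.9 ± 1.72 per Mb in the bithorax complex and 23.3 ± 3.23 per Mb in the Antennapedia complex, against 36.9 ± 0.578 in the rest of 3R. Every replicate was below 1 in each complex, and the ranges of the replicates in complexes and rest of 3R did not overlap. An exact two-sided permutation test by sign flips over the 3 replicates gave p = 0.25 for each complex, the smallest p that 3 replicates allow. The SD and p of these density ratios cover only the spread between libraries at the same loci. They do not measure how much one stretch of the arm differs from another.

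The optimal list gave 9 summits in the Antennapedia complex and 5 in the bithorax complex, or 25.2 and 14.9 per Mb, against 37.9 in the rest of 3R. Windows of the same length were tiled over 3R to show the spread between stretches. Of these, 60 of 77 held more than the Antennapedia complex, whose 9 stand beside a median of 14 (range 4 to 38). For the bithorax complex 73 of 83 held more, and its 5 stand beside a median of 13 (range 2 to 42). The Antennapedia complex was denser than the bithorax complex by 1.69, 1.41 and 1.31 times in the replicates (mean 1.47 ± 0.195; p = 0.25 by the same exact test).

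**Figure D3:**
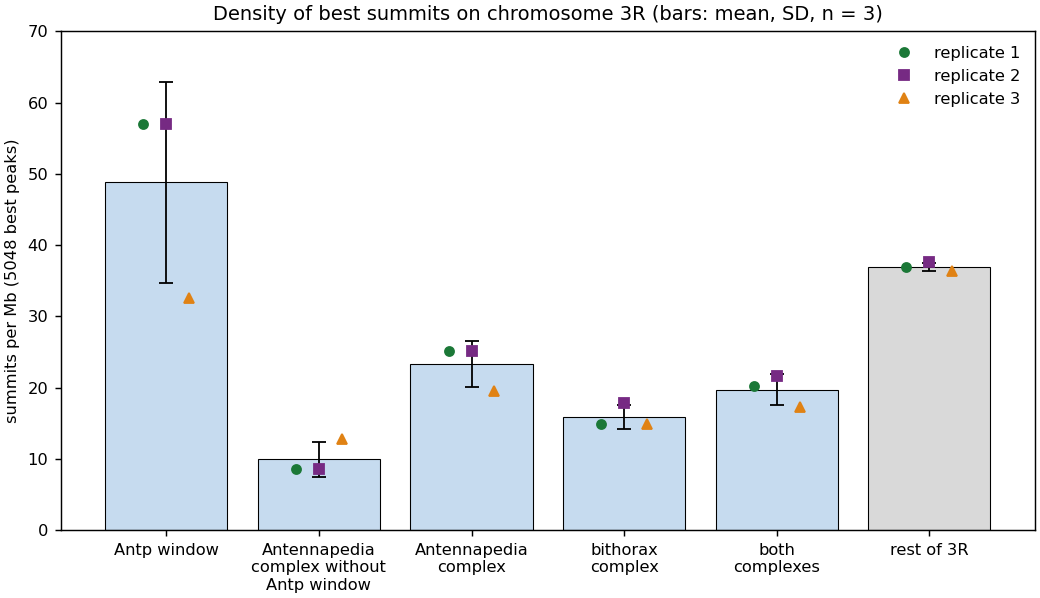
Summits per Mb among the 5048 best peaks of each replicate, in the window of Antp, in the Antennapedia complex without it, in each complex, in both, and in the rest of 3R. Bars are means and lines SD of 3 replicates, which are the symbols; both complexes averaged 19.7 and the rest of 3R 36.9 summits per Mb.

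Within the Antennapedia complex the density was not even. The Antp window had 1.54, 1.52 and 0.893 times the density of the rest of 3R (mean 1.32 ± 0.368), above it in 2 replicates and below it in replicate 3 (exact p = 0.5). The complex without this window, from lab to Scr, had 0.231, 0.227 and 0.351 times that density (mean 0.270 ± 0.0704). The Antp window held 7 of 9, 7 of 9 and 4 of 7 of the best summits of its complex in replicates 1, 2 and 3. This window was singled out after its counts were seen, so the lower density of the complex without it follows in part from that choice and is given as a description.

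The difference from the arm depended on how many peaks were kept. With the 500 best peaks of each replicate, no summit lay in either complex, and with the 1000 best there was 1, in Antp in replicate 3. That 1 summit made a ratio of 0.390 for the Antennapedia complex in that replicate. Few summits would fall in a complex at these cuts even at the density of the arm, so the ratios there are coarse. At 2000 best peaks the ratio was 0.379 ± 0.183 in the Antennapedia and 0.201 ± 0.198 in the bithorax complex. With all 30000 peaks of each replicate, background included, it reached 1.05 ± 0.110 in the Antennapedia complex and 0.886 ± 0.109 in the bithorax complex, so the full lists placed peaks in the complexes at close to the density of the arm. In the pooled list the direction turned for the Antennapedia complex, with 93 summits and 1.15 times the density of the rest of 3R.

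**Figure D4:**
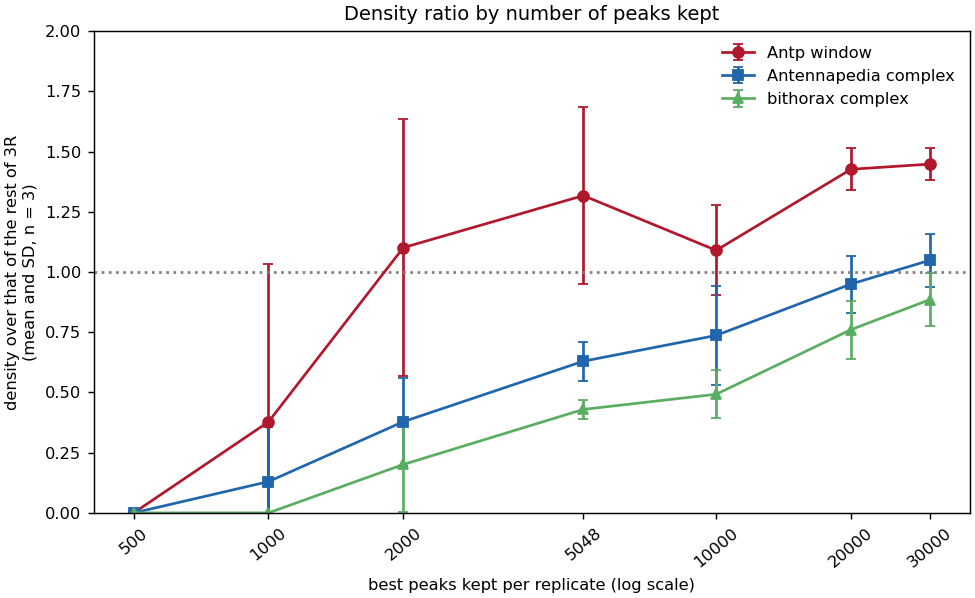
Density of summits in the Antp window, the Antennapedia complex and the bithorax complex over that of the rest of 3R (vertical axis; mean and SD of 3 replicates), by the number of best peaks kept per replicate (log axis). The ratio of each complex is at 0 for 500 peaks, where few summits would fall in a complex in any case, and near 1 for 30000.

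Set beside the 246 coding genes of 3R with a body of 20 kb or more, the 6 Hox genes of that length were ordered by optimal summits per 100 kb of window, the densest gene ranking as 1. Antp had 4.88 per 100 kb and ranked 74, Abd-B had 3.08 and ranked 118, abd-A had 2.33 and ranked 136, Scr had 2.13 and ranked 141, Ubx had 2.04 and ranked 148 and pb had 0, which ties it for last with every other gene without a summit. Their median was 2.23 per 100 kb, beside 2.58 for all 246. The genes closest to Antp in this density were Efa6, CG4467, betaTub97EF and myd, each with 2 summits and between 4.83 and 4.95 per 100 kb.

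**Figure D5:**
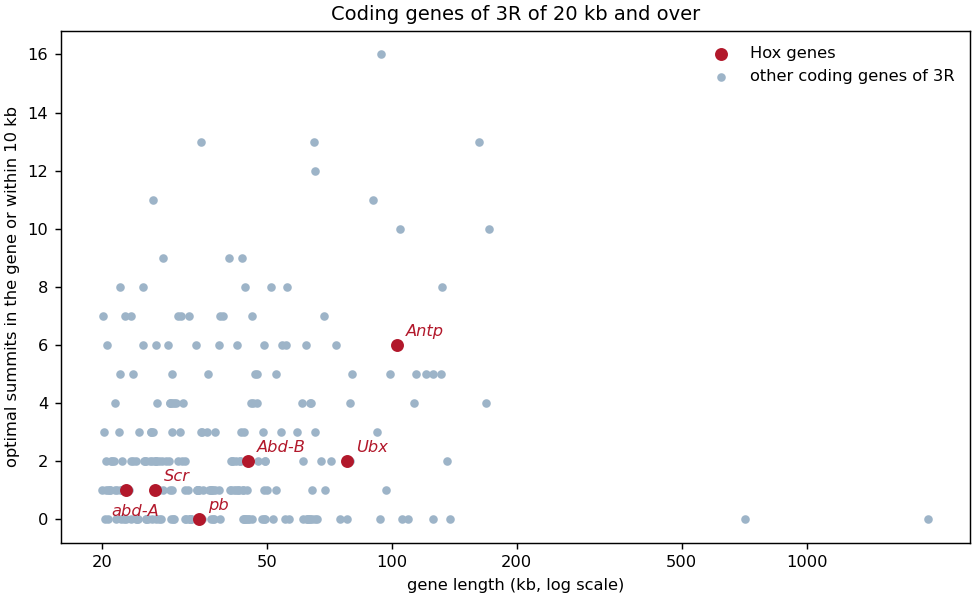
Optimal summits in the gene or within 10 kb of it (vertical axis) by gene length (log axis, kb) for coding genes of 3R of 20 kb and over, Hox genes in red. Antp has 6 summits over 103 kb, and pb is among the genes with 0.

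By place in the annotation, of the 13 in Hox windows, 9 were intronic (69.2%), 3 lay between coding genes and 1, that at CG10324, was at a promoter (7.69%). In the rest of 3R, 43.9% of the 1189 optimal summits were intronic and 35.3% were within 500 bp of a coding start. Antp held 6 of the 9 intronic ones in Hox windows. The Hox windows were drawn around gene bodies, and these shares were not adjusted for how much of each region is intron or promoter.

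The bases at the Hox summits resembled those of the other optimal peaks in mean composition. The 200 bp windows averaged 35.5% G and C, beside 34.4% for all optimal summits and 42.9% for 200 bp windows tiled over 3R. Of the 13, 8 (61.5%) were lower in G and C than their own flanks 1000 bp away, a smaller share than the 80.6% of all optimal summits. The window at chr3R:6912588 in Antp, printed above, was the lowest with 26.0%. The windows of abd-A, at 47.0%, and Dfd, at 47.5%, were the richest in G and C.

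GAGAG, in either orientation, was in 5 of the 13 windows (38.5%), beside 21.8% of all optimal summits and 21.2% of tiled windows of 3R. Among the printed sequences it was in those of the strongest Antp peak, abd-A, Abd-B and Dfd. The TATA box was in 5 (38.5%), beside 18.0% and 8.60%, and in the Ubx window it overlaps the homeodomain core. The Pleiohomeotic core was in 4 (30.8%), beside 23.4% and 37.7%, and the homeodomain core was in 2 (15.4%), beside 17.7% and 12.8%. These counts are of letters in 13 windows and say nothing of which protein was bound there; 1 window is 7.69%.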

How the data were processed

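Chromatin of whole prepupae from 3 biological replicates was measured by ChIP-seq against GFP. Per the deposited file lists, the authors called each replicate's peaks on its alignment with a control, the pooled list on all 3 alignments, and the optimal list from these by reproducibility. The signal in the authors' deposited lists has no stated scale. Aligner and caller were not given in the sources used here. Depth is unknown, so only the spread of 3 replicates bears on precision. Replicate lists shared at most 1 identical interval, so all 3 counted as samples. Summits on dm6 (counted from 1) were assigned to Ensembl release 115 genes with 10 kb on each side, and sequence came from the NCBI copy of the assembly. Each replicate was reduced to its 5048 best peaks, with signal divided by their median. Density ratios were tested by exact sign flips over replicates. All 8 Hox genes are named, with the listed neighbours, and in other lists the 4 members of highest signal; calypso was not matched. The members, lists and motifs were chosen with earlier results of these data known. The density step was tested on simulated peaks. Alternatives changed the window, peak number, edges, reference and replicates. The dm3 lists were not used. Scripts ran under pandas 2.3.3 with numpy 2.4.6 (Python 3.11.15), and figures were drawn with matplotlib 3.10.9.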

Additional observations from a re-analysis of the deposited data

How the results depend on the processing

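The density of the complexes was below that of the rest of 3R with the optimal list, with 10000 best peaks, without the centromeric 4.2 Mb and without the 10 kb edges, but not with every list. For the Antennapedia complex it was 1.05 with all 30000 peaks and 1.15 with the pooled list, and 1.32 for the Antp window alone. For both complexes it was 1.02 with the pooled list. Leaving out 1 replicate gave 0.603 to 0.676 for the Antennapedia complex, 0.407 to 0.443 for the bithorax complex, 0.511 to 0.562 for both and 1.36 to 1.55 for the first over the second. Gene bodies alone left 3 of 8 genes with a summit, and the 500 strongest optimal peaks left 0 genes and 0 summits. Keeping only peaks that overlap a best peak of all 3 replicates left 8 summits. The pooled list gave 125 summits. Without 1 replicate, 5 genes and 8 to 10 summits remained counted. The median signal of the Hox peaks, 0.913, became 0.670 with the mean of the best peaks as divisor and 3.34 with the median of all peaks, and ranged from 0.847 to 0.916 without 1 replicate. In windows of 100 bp GCCAT was in 7.69% of Hox summits, beside 11.6% of all optimal summits and 21.0% of tiled windows of 3R. These shares too were lower than in windows of 200 bp. At the 125 pooled summits TATAAAA was in 13.6% of 200 bp windows, beside 18.0% of all optimal summits and 8.60% of tiled windows. The Antp window, its removal, the tiled windows and the removal of promoters of other genes were added after seeing the data. No paired analysis was possible because the series has 1 group. The lists give no read counts, so what depth limits cannot be stated.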

Other observations

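Genes that regulate or work with the Hox genes were counted in the same way. An optimal summit in the window was found for 57.9% of all protein-coding genes and for 67.1% of those of 5 to 20 kb. Median lengths were 7.14 kb for the Polycomb list and 8.48 kb for the trithorax list, beside 2.17 kb for all coding genes. The shares of the Polycomb group (71.4%) and trithorax group (72.7%) were near that of genes of 5 to 20 kb. Of 6 Hox cofactors, 3 had an optimal summit in the window. The genes tsh, the trunk determinant, and disco-r had 2 each, and hth, the homeodomain partner of Exd, had 8, all in its body. Of 21 matched Polycomb group genes, 15 had one, and the highest were by Caf1-55 (8.60 ± 1.05 times the median, SD, n = 3), ph-p (5.92 ± 0.568), Pc (5.67 ± 0.469) and Psc (5.45 ± 0.626). Those by ph-p and Psc were nearest to the genes' own starts, and those by Caf1-55 and Pc were nearest to Art3 and CG11309. Of 22 trithorax group genes, 16 had one, with the highest by ash1 (12.3 ± 0.896), whose peak was nearest to CG14100, and in or by osa (9.33 ± 0.539), Trl, which encodes GAGA factor (7.33 ± 0.179), and lola (3.25 ± 0.575). Of 12 insulator factors, 5 had one, with the highest by M1BP (3.40 ± 0.687), Cp190 (2.73 ± 0.669) and the neighbours Ibf1 and Ibf2, which share a peak (1.34 ± 0.229). The peak by M1BP was nearest to CG8202 and the shared peak to St2, while that by Cp190 was nearest to the gene's own start.

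Other homeobox clusters were set beside the Hox complexes. The NK cluster on 3R had 0.413 ± 0.142 times the density of the rest of its arm (SD, n = 3), the Iroquois complex on 3L 0.326 ± 0.286, and engrailed with invected on 2R 1.31 ± 0.241, with 3, 2 and 4 optimal summits over 198.2, 149.6 and 73.7 kb.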
